A study of Mus musculus with 4 samples.

Results

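The 39 genes described here encode the proteins of the neuronal synapse: the vesicle proteins, the fusion machinery, the active zone, the vesicular glutamate transporters, the postsynaptic scaffolds and the adhesion molecules that join both sides. They were chosen by gene symbol, with 1 probe set per gene, that with the highest mean over the arrays. All 39 were measured, each by a single probe set, among 22206 probe sets and 19505 named genes. The samples were 4 cerebella of male C57BL/6N mice aged 10 weeks, each on 1 Affymetrix whole-transcript array. The vehicle group (n = 2, replicates 7 and 9) received vehicle by mouth, and the clothianidin group (n = 2, replicates 6 and 7) received clothianidin at 50 mg per kg body weight per day. Clothianidin is a neonicotinoid insecticide that acts on nicotinic acetylcholine receptors, and the series title calls this a no-observed-adverse-effect dose. Both groups were treated over 4 days of rotarod running, a test of motor coordination, and brains were taken after the last test, so all mice had the motor task in common. The labels do not say more of the replicates than that they are separate samples. The p-values therefore rest only on spread among these samples, pooled in part over all probe sets, and that spread may be technical.

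At a chemical synapse, vesicles filled with transmitter dock at the active zone, where scaffold proteins hold them near calcium channels. Munc13 and RIM proteins prime the vesicles, SNARE proteins zip the membranes together, and synaptotagmins sense the calcium that triggers fusion. On the receiving side, PSD-95 and Shank scaffolds anchor receptors, and neuroligins reach across the cleft to neurexins. In the cerebellum, granule cells send parallel fibres to Purkinje cells, and these synapses, which carry the vesicular glutamate transporter VGLUT1, are a main site of motor learning. Mossy and climbing fibres carry much of the VGLUT2 protein, but their cell bodies lie largely outside the cerebellum, so most of their transcripts are made elsewhere, while excitatory neurons of the cerebellar nuclei make VGLUT2 there.

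The values were log2 probe set levels, given array by array as vehicle replicates 7 and 9 and then clothianidin replicates 6 and 7, and a log2 difference is the clothianidin mean minus the vehicle mean. The tissue carried its defining markers. The granule cell gene Gabra6 was between 17.05 and 17.41 and the Purkinje cell gene Pcp2 between 16.10 and 17.18 on the 4 arrays. The forebrain gene Emx1 was between 3.46 and 3.80, the lowest of 8 midbrain and forebrain markers measured. Of these 8, 4 lay at or above the median level of all probe sets, and Tcf7l2 was between 9.11 and 11.70. Both clothianidin arrays stood apart from each other in other gene groups. The median deviation from the mean of the 4 arrays was -0.31 on clothianidin replicate 6 and 0.57 on clothianidin replicate 7 for 32 respiratory chain genes, and -0.34 and 0.53 for 25 ribosomal protein genes. The vehicle arrays differed in these groups too. Vehicle replicate 7 was above replicate 9 for 30 of the 32 and 23 of the 25, with median log2 differences of 0.41 and 0.47. The choroid plexus gene Ttr was at 13.96 on clothianidin replicate 7 and between 5.67 and 6.38 on the other arrays. Of 9 choroid plexus markers, Ttr among them, 5 were higher with clothianidin and 4 lower. Their median deviation on clothianidin replicate 7 was -0.115, and 4 of the 9 lay at or above the median level of all probe sets. Kcnj13 and Folr1 were also highest on that array, at 8.92 against 6.73 to 6.99 and 6.05 against 4.62 to 5.24. Kl, Aqp1, Clic6, Otx2, Slc4a5 and Cldn2 were highest on another array. Of 8 Purkinje cell markers measured, clothianidin arrays had higher means in 6 and lower in 2 (median log2 difference 0.17). The groups did not overlap for 5 of them, all higher, where 30.6% of all probe sets did not overlap in either direction. Pcp2, Pcp4 and Calb1 were 1.6-fold, 1.6-fold and 1.58-fold higher, where 4.04% of all probe sets were at least 1.5-fold higher without overlap. The summed linear level of the 8 markers was 1078550 and 917217 with vehicle and 1089074 and 1245605 with clothianidin. Of 11 oligodendrocyte markers measured, all were lower with clothianidin, by a median log2 difference of -0.19, with summed linear levels of 248740 and 210305 against 237107 and 184428. The part of these differences in the results below was not tested.

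The comparison asked which transcripts of the synapse differ in the cerebellum after short exposure to clothianidin. None passed limma's adjusted threshold, and the values below describe these arrays. Shank2 and Shank1, postsynaptic scaffold genes, were higher with clothianidin by 2.16-fold and 1.61-fold, and the active zone genes Unc13c, Pclo and Bsn by 1.81-fold, 1.77-fold and 1.73-fold. Other genes of these roles were less than 1.5-fold apart. Rims1 and Erc2, at the active zone, were higher without overlap, by 1.44-fold and 1.37-fold. Erc1 and Unc13b, also of the active zone, had log2 differences of -0.03 and -0.27. The groups overlapped for Unc13a, Rims2, Dlg4 and Shank3. Nlgn2, an adhesion gene of inhibitory synapses, was 1.56-fold higher, and Sv2c, a vesicle protein gene, was higher by just 1.5-fold. Slc17a6, which encodes VGLUT2, was 2.03-fold lower. In whole tissue, fewer cells of a type and less RNA per cell cannot be told apart. No SNARE or complexin gene was 1.5-fold apart. These 8 genes were the members at least 1.5-fold apart with groups that did not overlap, 20.5% of the members, where 7.61% of all probe sets met the same rule. In the set of probe sets with a mean level of at least the median, which holds 37 of the members, it was 8.32%.

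By direction, 7 members (17.9%) met that rule as higher and 1 as lower, where 4.04% of all probe sets were higher and 3.57% lower. Of the 11106 probe sets of at least median level, 695 met it as higher and 229 as lower. Sv2c lay on the threshold, at a log2 difference of 0.585, and the next members outside it were Rims1 at 0.53 and Sv2b at -0.51. At any size of difference, the groups did not overlap for 17 members (43.6%) and for 30.6% of all probe sets. Of the 39 members 28 were higher and 11 lower, where 10689 and 11368 of all 22206 probe sets were. Of the 11106 probe sets of at least median level, 6483 were higher and 4557 lower. The members had a median log2 difference of 0.17. The median over all probe sets was -0.01 and that over probe sets of at least median level was 0.07. No member passed limma's test at an adjusted p of 0.05, the smallest adjusted p of a member being 0.997, and 0% of all probe sets passed. An unadjusted limma p under 0.05 was reached by 5 members, Shank2, Unc13c, Slc17a6, Pclo and Shank1, where 4.23% of all probe sets met it. The median standard error of a member's log2 difference was 0.30, so differences of the size seen in most members were not detectable with 2 arrays per group.

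**Figure D1:**
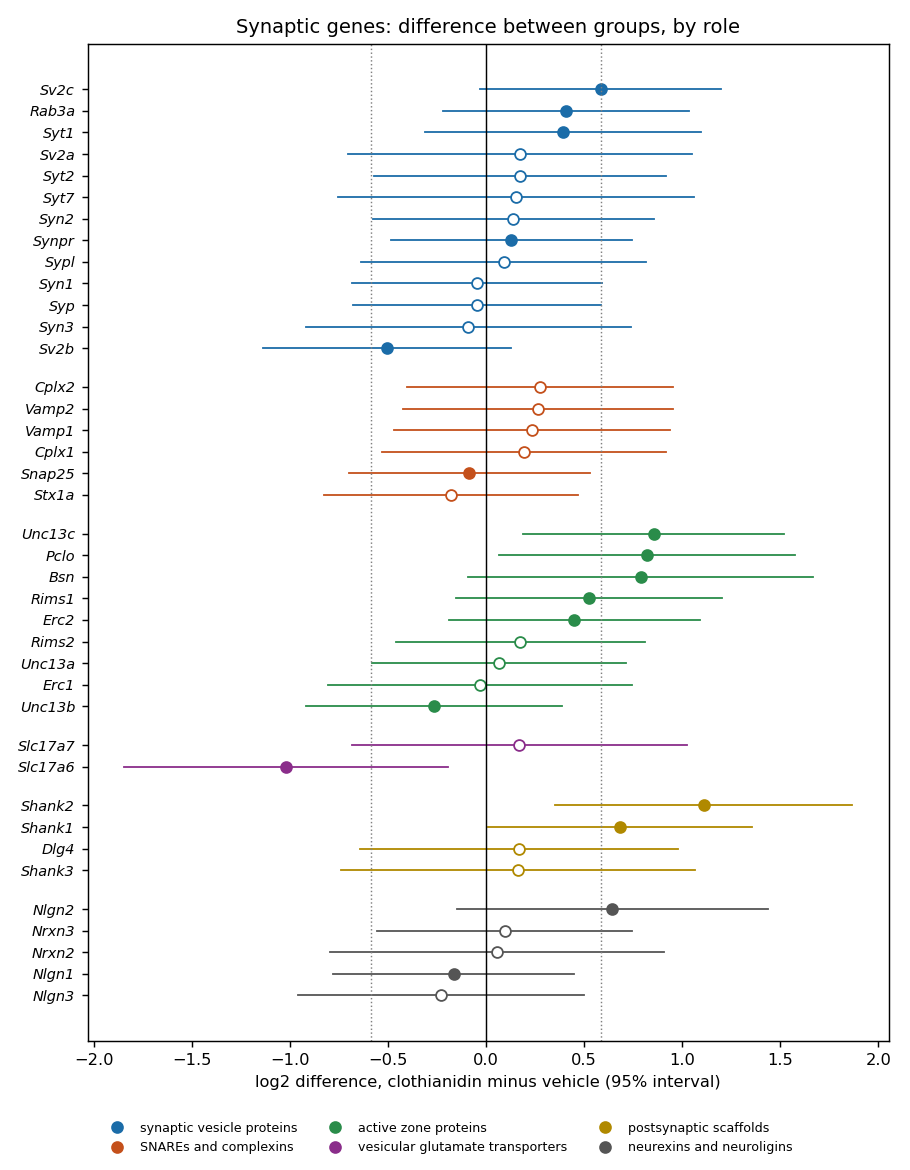
Log2 difference (clothianidin minus vehicle, n = 2 arrays each) of the 39 members by role; lines are limma's 95% intervals, filled points mark members whose groups do not overlap, and dotted lines mark 1.5-fold. Of the filled points, 7 lie at or right of the upper dotted line, Shank2 the farthest, and Slc17a6 alone lies left of the lower one.

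Among the 13 vesicle protein genes, 9 were higher and 4 lower, with a median log2 difference of 0.14. The SV2 glycoproteins, vesicle membrane proteins of which SV2A binds the antiepileptic levetiracetam, differed in direction. Sv2c (probe set TC1300002468.mm.2) read 9.51 and 9.61 on vehicle replicates 7 and 9, then 10.13 and 10.16 on clothianidin replicates 6 and 7. Both groups were tight, and every clothianidin value lay above both vehicle values, with a standard error of 0.27 on the difference. Sv2b read 13.89 and 13.64 with vehicle, then 13.20 and 13.32 with clothianidin, lower on both clothianidin arrays. For Sv2a the groups overlapped, and its log2 difference was 0.18.

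Rab3a encodes the small GTPase that tethers vesicles to RIM. It read 15.57 and 15.33 with vehicle, then 15.87 and 15.85 with clothianidin, without overlap, at a log2 difference of 0.41 (limma 95% interval -0.22 to 1.04). Syt1, the fast calcium sensor of release, read 16.90 and 16.70 with vehicle, then 17.48 and 16.91 with clothianidin, so the lower clothianidin array was only just above the vehicle arrays. Without clothianidin replicate 6 its log2 difference was 0.11, against 0.40 with all arrays. Synpr, which encodes the vesicle protein synaptoporin, read 12.26 and 12.29, then 12.35 and 12.46, a difference of 0.13 without overlap.

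The remaining vesicle genes overlapped between groups. The synapsin genes, whose products tie vesicles to the cytoskeleton, had log2 differences of -0.05 for Syn1, 0.14 for Syn2 and -0.09 for Syn3. The synaptophysin gene Syp had -0.05 and its relative Sypl 0.09. The other synaptotagmin genes, Syt2 and Syt7, had 0.18 and 0.16. For both of these the spread lay in the treated group, since Syt2 was at 13.51 and 12.78 and Syt7 at 13.41 and 12.29 on the clothianidin arrays.

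The 6 genes of SNAREs and complexins, the fusion core and its clamp, had 4 higher and 2 lower and a median of 0.22, with differences from -0.18 to 0.28. Cplx2, a complexin gene, read 12.63 and 12.36 with vehicle, then 12.99 and 12.55 with clothianidin, and the groups overlapped; its difference of 0.28 was 0.06 without clothianidin replicate 6. Vamp2 and Vamp1, the vesicle SNARE genes, had 0.27 and 0.24, with clothianidin replicate 6 the highest array for both. Snap25, a SNARE gene of the plasma membrane, read 18.49 and 18.36 with vehicle, then 18.33 and 18.35 with clothianidin. Its groups did not overlap, but the difference was -0.09 with an interval from -0.70 to 0.53. Cplx1 had a difference of 0.20. The probe set for the plasma membrane SNARE gene Stx1a read 3.45 and 3.74 with vehicle, then 3.53 and 3.30 with clothianidin. On each array this lay below the median of olfactory and vomeronasal receptor probe sets, which was 4.02 to 4.33, so the probe set was not shown to be above background and says little about Stx1a.

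The 9 active zone genes had 7 higher and 2 lower and a median log2 difference of 0.45. Unc13c encodes Munc13-3, the vesicle priming factor that is typical of cerebellar granule cells. Its probe set (TC0900002656.mm.2) read 11.42 and 11.17 with vehicle, then 12.34 and 11.96 with clothianidin. Both clothianidin values lay above both vehicle values by more than the spread within either group, and the log2 difference was 0.86 (SE 0.29, limma 95% interval 0.19 to 1.52). Its paralogs had other values. Unc13a had a log2 difference of 0.07, and Unc13b read 6.29 and 5.91 with vehicle, then 5.88 and 5.79 with clothianidin. The Unc13b values lay near the 95th percentile of the receptor probe sets, 5.85 to 6.37, so a low signal limits that gene.

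Piccolo and Bassoon, giant paralogous scaffolds that organise the active zone, had like differences. Pclo (TC0500000096.mm.2) read 14.52 and 14.15 with vehicle, then 15.49 and 14.82 with clothianidin, a log2 difference of 0.82 (SE 0.33). Bsn (TC0900003052.mm.2) read 7.43 and 7.74 with vehicle, then 8.90 and 7.85 with clothianidin, a difference of 0.79 (SE 0.38). For Bsn the second clothianidin array was barely above the vehicle arrays. Without clothianidin replicate 6 the log2 difference was 0.49 for Pclo and 0.27 for Bsn, and without clothianidin replicate 7 it was 1.32 for Bsn.

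Rims1, which encodes the central RIM scaffold, read 13.87 and 13.81 with vehicle, then 14.62 and 14.11 with clothianidin, a difference of 0.53 that became 0.27 without clothianidin replicate 6. Erc2, which encodes the ELKS-family protein CAST, read 8.44 and 8.18, then 8.86 and 8.66, without overlap. Rims2 and Erc1 overlapped between groups and had differences of 0.18 and -0.03.

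Slc17a6 had the lowest difference of all members. Its probe set (TC0700000913.mm.2) read 9.57 and 8.62 with vehicle, then 8.02 and 8.13 with clothianidin. Both clothianidin values lay below both vehicle values, but the vehicle arrays were 0.95 apart, and the log2 difference was -1.02 (SE 0.36). Without vehicle replicate 7 it was -0.55, and without vehicle replicate 9 it was -1.50. Slc17a7, the VGLUT1 gene of granule cells, read 15.37 and 14.76 with vehicle, then 15.65 and 14.82 with clothianidin, with overlap and a difference of 0.17.

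Markers of brainstem and cerebellar nuclei neurons, most of them of cholinergic and monoaminergic cells, were set beside Slc17a6. Of 11 measured besides Slc17a6, 4 were higher and 7 lower, with a median log2 difference of -0.09, and 7 of them lay below the median level of all probe sets. Chat was between 2.48 and 2.64 on all arrays, below the median of the receptor probe sets. Their summed level on the linear scale came to 7803 and 10609 with vehicle, then 8709 and 8591 with clothianidin, and most of it was the neurofilament genes Nefh and Nefm. Without these it came to 535 and 1161, then 565 and 838, and 2 of the remaining 9 markers were highest on vehicle replicate 7, as Slc17a6 was. Of 8 midbrain and forebrain markers measured, 2 were higher and 6 lower. Their sum was 4065 on vehicle replicate 7 and 1480 to 1770 on the others, and most of the excess was Tcf7l2, at 11.70 on vehicle replicate 7 and between 9.11 and 9.94 elsewhere. Without Tcf7l2 the sum came to 738 and 944 with vehicle, then 646 and 927 with clothianidin. Of the 7 markers left, 4 lay below the median level of all probe sets, and 2 were highest on vehicle replicate 7. A sum without Tcf7l2 cannot show the cells that Tcf7l2 itself marks. The genes left out of these sums were chosen after their values were seen, and the part of either cell group in the Slc17a6 difference was not tested.

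All 4 postsynaptic scaffold genes were higher, with a median of 0.43. The Shank proteins form the deep layer of the postsynaptic density. Shank2 (TC0700002105.mm.2) read 10.60 and 11.05 with vehicle, then 12.25 and 11.62 with clothianidin, the highest log2 difference of the members, 1.11 (SE 0.33, limma 95% interval 0.35 to 1.87). Shank1 (TC0700000800.mm.2) read 13.47 and 13.65 with vehicle, then 14.47 and 14.02 with clothianidin, a difference of 0.69 (SE 0.29). In both genes the groups were apart, with clothianidin replicate 6 the higher treated array. Without that array the log2 difference of Shank1 was 0.46, under the 1.5-fold threshold, and that of Shank2 was 0.80.

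Shank3 read 9.13 and 8.98 with vehicle, then 9.79 and 8.65 with clothianidin, so its treated arrays lay on both sides of the vehicle arrays and its difference of 0.17 turned to -0.41 without clothianidin replicate 6. Dlg4, the PSD-95 gene, had a difference of 0.17 with overlap, and -0.17 without that array.

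Of the 5 neurexin and neuroligin genes 3 were higher and 2 lower, with a median of 0.06. Nlgn2 (TC1100003069.mm.2) read 12.54 and 12.44 with vehicle, then 13.57 and 12.70 with clothianidin, a difference of 0.65 (SE 0.34). Most of it lay on clothianidin replicate 6, since the difference was 0.21 without that array and 1.08 without clothianidin replicate 7. Nlgn1, the neuroligin gene of excitatory synapses, read 10.95 and 11.04, then 10.82 and 10.84, a difference of -0.17 without overlap. Nlgn3 read 13.01 and 12.51, then 12.77 and 12.29, with overlap. The neurexin genes Nrxn2 and Nrxn3 had differences of 0.06 and 0.10 and overlapped.

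**Figure D2:**
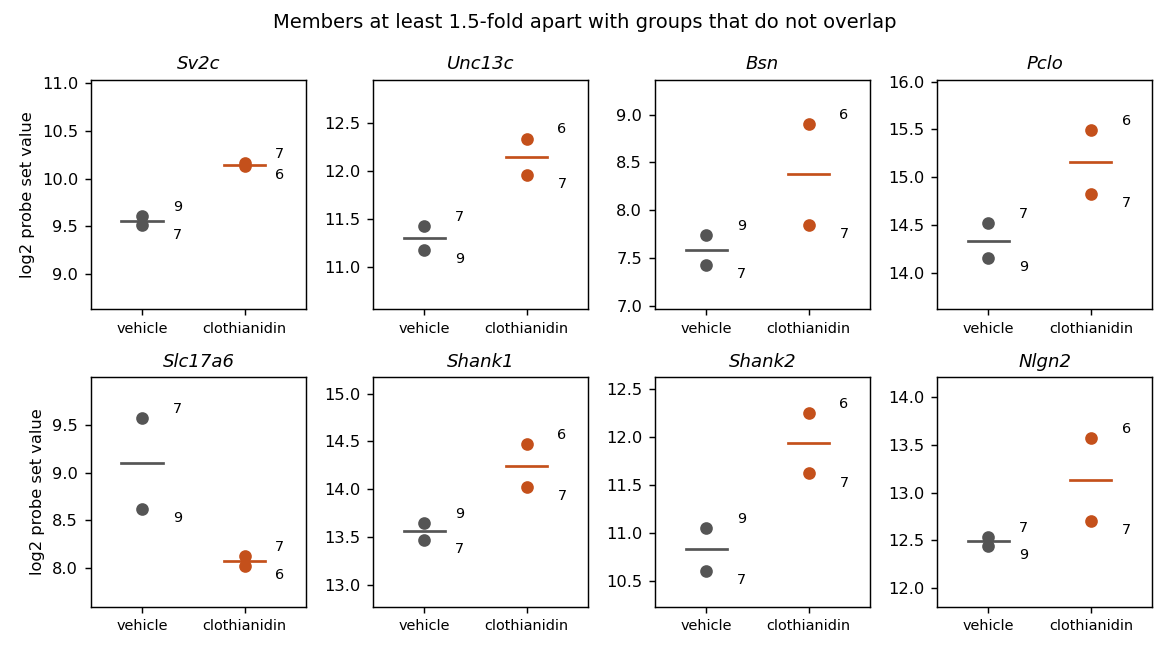
Log2 probe set value on each array (points, labelled with the replicate number) and group mean (line) for the 8 members at least 1.5-fold apart without overlap; every panel spans the same log2 range. In Unc13c, Bsn, Pclo, Shank1, Shank2 and Nlgn2 clothianidin replicate 6 is the higher treated array, while in Sv2c the treated arrays are 0.03 apart and in Slc17a6 the vehicle arrays are the ones that spread.

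Paralogs measured on the same array allow their log2 ratio to be compared between groups, a measure to which a shift shared by both adds nothing; these pairs were chosen after the values were seen. Over 25 pairs in 13 families, the ratio did not overlap between groups in 13 pairs. The pairs share genes, and 30.6% of single probe sets did not overlap, but no such share was taken over ratios of other genes. In each pair the gene with the larger log2 difference was put first, so no ratio could be lower with clothianidin. The ratio of Unc13c to Unc13a was the tightest of the large ones, reading 1.89 and 1.85 with vehicle, then 2.70 and 2.62 with clothianidin. It was 0.79 higher with clothianidin, and the arrays of a group differed by at most 0.08. The ratio of Sv2c to Sv2b was 1.09 higher, with SDs of 0.25 and 0.06 (n = 2 each), and that of Slc17a7 to Slc17a6 was 1.19 higher, with SDs of 0.24 and 0.66 (n = 2 each). Shank2 against Shank3 was 0.95 higher and Nlgn2 against Nlgn3 0.88 higher. Pclo against Bsn, Vamp2 against Vamp1 and Cplx2 against Cplx1 differed by 0.03, 0.03 and 0.08 with overlap. With 2 arrays against 2, the two-sided exact permutation test of a ratio cannot give a p below 0.333, and over these pairs the smallest adjusted p was 0.64.

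By array, the members were high on clothianidin replicate 6 rather than on both treated arrays. Their median deviation from the 4-array mean was -0.01 and -0.19 on vehicle replicates 7 and 9, 0.36 on clothianidin replicate 6 and -0.12 on clothianidin replicate 7. Clothianidin replicate 6 was the highest of the arrays for 27 of the 39 members (69.2%), against 26.2% of all probe sets and 35.3% of those of at least median level. Active zone genes deviated by -0.10 and -0.24 with vehicle and by 0.39 and -0.04 with clothianidin, and scaffold genes by -0.22 and -0.29 and then by 0.61 and -0.07, so in these roles both treated arrays lay above both vehicle arrays. For the vesicle proteins, at 0.09 and -0.23 and then 0.28 and -0.14, and for SNAREs and complexins, at -0.02 and -0.18 and then 0.32 and -0.12, the groups overlapped. The glutamate transporters had their highest deviation, 0.60, on vehicle replicate 7. Neurexins and neuroligins had -0.15 and 0.06 with vehicle and 0.21 and -0.11 with clothianidin.

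Granule cell markers, from the cells that make the parallel fibre synapses, also had their highest median deviation on clothianidin replicate 6. It was the highest array for 6 of 9 of them. The same held for 7 of 10 molecular layer and Golgi interneuron markers and 3 of 4 unipolar brush cell markers. It held for 1 of 8 Purkinje cell markers and 1 of 11 oligodendrocyte markers. Of the 9 granule cell markers, 7 were higher and 2 lower with clothianidin. Their median log2 difference was 0.42, near the medians of the active zone genes (0.45) and the scaffold genes (0.43). The groups did not overlap for 4 of them, all higher, where 30.6% of all probe sets did not overlap in either direction. Zic2 and Fat2 were at least 1.5-fold higher, with log2 differences of 0.97 and 0.82, where 4.04% of all probe sets were so without overlap. The list's median deviations were -0.07 and -0.25 with vehicle and 0.51 and -0.0025 with clothianidin, without overlap. Their summed linear level was 578043 and 483441 with vehicle and 750054 and 538635 with clothianidin, with overlap. Respiratory chain and ribosomal protein genes ran opposite to the members on the treated arrays, since all 32 and all 25 of them were lower on clothianidin replicate 6 than on replicate 7, while 32 of the 39 members were higher. The part of these in the members' values was not tested.

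**Figure D3:**
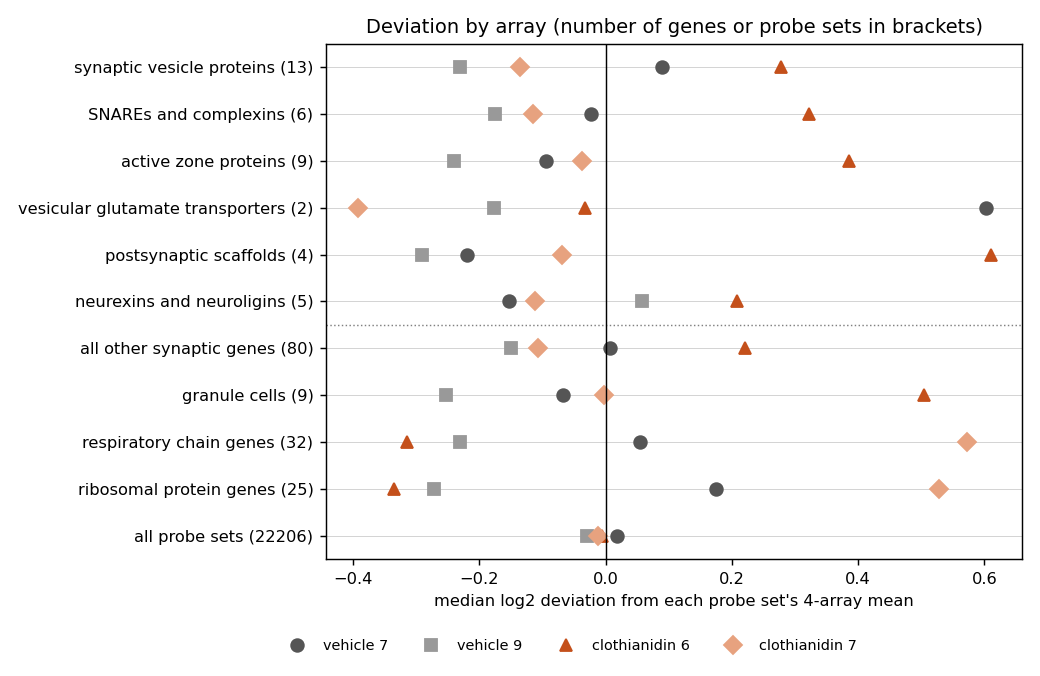
Median log2 deviation from each probe set's 4-array mean, by array, for the 6 roles (above the dotted line) and for other gene lists and all probe sets (below it); symbols mark arrays. Clothianidin replicate 6 lies rightmost in every role but the glutamate transporters, and leftmost for respiratory chain and ribosomal protein genes.

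Leaving out each array in turn showed how far the members rest on clothianidin replicate 6. Without it the median log2 difference of the members was -0.08, 15 were higher and 24 lower, and 4 met the 1.5-fold rule (Sv2c, Unc13c, Slc17a6 and Shank2), where 13.2% of all probe sets did. Without clothianidin replicate 7 the median was 0.50, and 13 members met the rule against 17.4% of probe sets. Without vehicle replicate 7 the median was 0.30, with 6 members meeting the rule against 18.6%, Sv2c and Slc17a6 no longer among them, and without vehicle replicate 9 it was 0.09, with 9 against 14.5%. With 1 array in a group, groups overlap less easily, which raises these shares. Unc13c and Shank2 met the rule with all arrays and without each array in turn, 2 of the 39 members, where 2.14% of all probe sets did. The log2 difference of Unc13c then ranged from 0.67 to 1.05 and that of Shank2 from 0.80 to 1.43. The active zone median was 0.27 or higher in each case and the scaffold median 0.15 or higher.

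**Figure D4:**
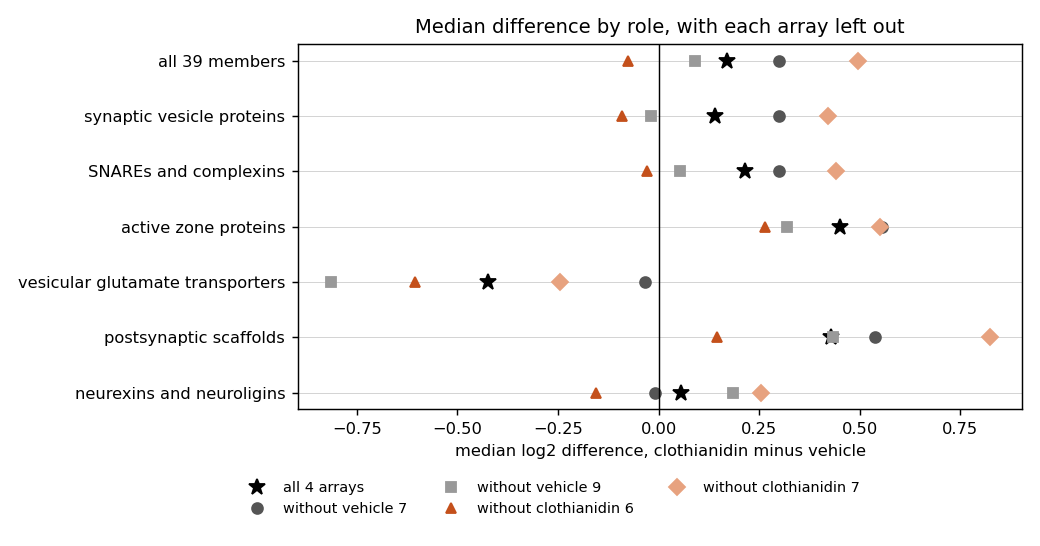
Median log2 difference (clothianidin minus vehicle) of all members and of each role, with all arrays (stars) and with each array left out (other symbols). The active zone and scaffold medians stay right of 0 throughout. Without clothianidin replicate 6 the medians of all members, vesicle proteins, SNAREs and complexins, and neurexins and neuroligins fall left of 0.

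Other genes of the same machinery, from a list of 88 of which 80 were measured, showed a smaller median. Of these 46 were higher and 33 lower, with a median log2 difference of 0.12. None passed limma's adjusted threshold, 4 had an unadjusted limma p under 0.05, and 4 were 1.5-fold higher and 2 lower without overlap. Over all probe sets these shares were 4.23% for the unadjusted p and 7.61% for the fold rule, so 4 and 6 of 80 genes are near the background, and the values of single genes below are a description. By role, 19 of 36 vesicle, fusion and endocytosis genes, 9 of 13 active zone genes and 18 of 31 postsynaptic density and adhesion genes were higher, with medians of 0.03, 0.18 and 0.18. Clothianidin replicate 6 was again the highest array, with deviations of 0.01 and -0.15 with vehicle and 0.22 and -0.11 with clothianidin.

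At the active zone, Ppfia1, a liprin-alpha gene, read 8.94 and 9.01 with vehicle, then 9.79 and 9.65 with clothianidin, a log2 difference of 0.75 with both groups tight. Its relative Ppfia4 read 7.78 and 7.75, then 8.67 and 7.93. Among adhesion genes, Adgrl2, a latrophilin gene, read 7.23 and 7.21 with vehicle, then 8.29 and 7.88 with clothianidin, a difference of 0.87. Ptprd, a receptor phosphatase gene that organises presynaptic sites, read 11.01 and 10.68, then 11.55 and 11.49. The scaffold genes Dlg3 and Gphn, the latter encoding gephyrin of inhibitory synapses, had differences of 0.33 and 0.32. Of the fusion and endocytosis genes, Sh3gl2, which encodes endophilin A1, read 14.87 and 14.25 with vehicle, then 13.96 and 13.71 with clothianidin, lower by a log2 difference of -0.73. The tomosyn genes Stxbp5 and Stxbp5l, whose products hold SNAREs back, had 0.72 and 0.49, and Syt11 had 0.37, all without overlap.

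Promoter sequences were taken for the members 1.5-fold apart, since these are the genes on which the comparison turns. RefSeq promoters (build GRCm38.p6) were given for 30 of the 39 members by symbol, and for 6 of the 8, Shank1 and Shank2 being the others. Each sequence below is the 250 bases before the annotated start, 5′ to 3′ on the gene's strand, with matches on either strand to the GC box (GGGCGG) or to the core of the NRF1 motif (GCGCANGCG) in capitals. For Slc17a6, with 2 starts in the table, the upstream one is shown.
Bsn (chr9:108190384-108190633, minus strand): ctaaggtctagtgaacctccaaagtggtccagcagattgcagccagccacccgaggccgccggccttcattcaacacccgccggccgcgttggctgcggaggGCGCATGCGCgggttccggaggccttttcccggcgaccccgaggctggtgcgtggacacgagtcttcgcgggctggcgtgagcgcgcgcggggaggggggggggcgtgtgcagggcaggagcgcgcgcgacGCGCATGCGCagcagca
Pclo (chr5:14514668-14514917, plus strand): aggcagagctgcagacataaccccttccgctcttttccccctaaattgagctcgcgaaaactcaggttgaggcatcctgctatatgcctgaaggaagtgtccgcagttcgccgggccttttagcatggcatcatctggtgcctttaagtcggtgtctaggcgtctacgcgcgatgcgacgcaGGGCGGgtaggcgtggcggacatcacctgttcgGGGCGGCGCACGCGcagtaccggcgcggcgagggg
Unc13c (chr9:73969038-73969287, minus strand): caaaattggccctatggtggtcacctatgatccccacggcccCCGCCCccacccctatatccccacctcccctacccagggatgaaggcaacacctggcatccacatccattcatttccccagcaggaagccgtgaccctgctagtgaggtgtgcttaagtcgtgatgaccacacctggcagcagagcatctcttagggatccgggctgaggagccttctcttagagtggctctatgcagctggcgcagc
Nlgn2 (chr11:69837785-69838034, minus strand): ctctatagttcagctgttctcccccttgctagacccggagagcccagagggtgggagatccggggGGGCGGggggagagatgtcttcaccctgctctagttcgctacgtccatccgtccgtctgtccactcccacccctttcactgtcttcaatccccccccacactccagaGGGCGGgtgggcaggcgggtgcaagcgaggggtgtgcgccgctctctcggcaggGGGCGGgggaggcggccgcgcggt
Sv2c (chr13:96132578-96132827, minus strand): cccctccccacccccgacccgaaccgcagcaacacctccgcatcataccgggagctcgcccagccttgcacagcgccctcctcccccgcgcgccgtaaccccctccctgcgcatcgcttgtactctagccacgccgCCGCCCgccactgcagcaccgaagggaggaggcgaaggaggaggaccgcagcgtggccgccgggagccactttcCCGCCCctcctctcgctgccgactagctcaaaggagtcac
Slc17a6 (chr7:51621580-51621829, plus strand): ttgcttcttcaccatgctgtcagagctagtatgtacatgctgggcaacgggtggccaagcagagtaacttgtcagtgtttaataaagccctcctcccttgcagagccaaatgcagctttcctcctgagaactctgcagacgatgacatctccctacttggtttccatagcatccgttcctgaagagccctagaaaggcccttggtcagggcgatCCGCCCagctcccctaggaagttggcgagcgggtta

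The promoter of Bsn held 2 sites that match the NRF1 core and none that match the GC box, and that of Pclo held 1 NRF1 core, which overlapped 1 of its 2 GC boxes. GC boxes alone were found for Nlgn2 with 3, Sv2c with 2, and Unc13c and Slc17a6 with 1 each. Over all members with a promoter, 6 of 30 (20%) held the NRF1 core and 23 of 30 (76.7%) a GC box, against 5.86% and 35.4% of 27025 genes with a promoter of the same length. The cyclic AMP response element TGACGTCA was found in 1 of 30 (3.33%), Syn1, against 1.77% of genes. The members' promoters were richer in G and C, with a median of 61.2% against 52.4% of bases, and the GC box and NRF1 core consist mostly of these bases. No background matched for base content or expression level was taken, so the motif shares are a description only. The other members with the NRF1 core, Dlg4, Syn1, Syp and Sypl, had log2 differences of 0.17, -0.05, -0.05 and 0.09. A match describes letters in this window and is not a measured binding site.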

How the data were processed

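Total RNA (250 ng, integrity number above 7.0) was, per the labels' protocols, amplified and end-labelled using kits of the GeneChip WT line. The deposited log2 values, given to 2 decimals, are RMA summaries, as the submitters' processing notes name the method; its version and the log base are not given in the sources used here, and base 2 was taken from RMA's scale. The number of arrays limits the precision. Value columns were matched to samples by accession and grouped by title. Symbols came from the platform annotation, checked by gene identifier against RefSeq (GRCm38.p6), which changed 0 symbols: 19572 of 22206 probe sets had 1 symbol, 0 had several and 2634 are unnamed here. The members and lists were chosen with earlier results of these data known, so no list was given a p-value.

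Differences were fitted with limma 3.58.1 (lmFit, eBayes) in R 4.3.3 on all probe sets, with Benjamini-Hochberg adjustment at 0.05, and the fit was tested on simulated data. Each probe set's own variance had 2 residual degrees of freedom. It was drawn toward a prior fitted over all probe sets, which had 5.96, so standard errors, intervals and p-values rest on both. Probe sets whose groups lay 1.5-fold or more apart without overlap were also counted. All members were described, with values on every array for those without overlap and for the highest and lowest of each role. From each list of other synaptic genes, up to 4 with the largest difference among genes without overlap at or above the median level were named; listed genes not matched to a probe set were not analysed here. Alternatives were centring on the median, quantile normalization, level filters (25th percentile or median), a single probe set per gene, the mean of a gene's probe sets, trend and robust priors, folds of 1.2 and 2, only members at or above the median level, means for medians, an unadjusted p, and leaving out each array. Paralog pairs were compared by two-sided exact permutation tests in scipy 1.17.1, and promoters were searched on both strands; both were added after the values were seen.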

Additional observations from a re-analysis of the deposited data

How the results depend on the processing

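No paired analysis was possible because the groups share only replicate number 7. With 2 arrays per group, the smallest adjusted p of a member in the limma fits run was 0.831, without vehicle replicate 7. The count of all probe sets past limma's adjusted threshold was 0, with 940 at an unadjusted p under 0.05, and 0 to 1 with an array left out, Ttr without clothianidin replicate 6. Probe sets 1.5-fold apart without overlap numbered 1689, against 924 with the filter at the median level, 5348 at 1.2-fold, 206 at 2-fold and 2922 to 4120 with an array left out. The members meeting that rule numbered 8, against 5 after quantile normalization (Unc13c, Bsn, Pclo, Slc17a6 and Shank2), 14 at 1.2-fold, 2 at 2-fold and 4 to 13 with an array left out. Of all probe sets meeting it, 53.1% were higher, against 59.4% after median centring and 52.2% after quantile normalization. With an array left out, the members' median ranged from -0.075 to 0.50 and the number higher from 15 to 31. The medians by role then ranged from -0.09 to 0.42 for vesicle proteins, -0.03 to 0.44 for SNAREs and complexins, 0.15 to 0.82 for scaffolds and -0.16 to 0.26 for neurexins and neuroligins, whose median was -0.0263 after quantile normalization. Quantile normalization also turned Unc13a to -0.0162, Nrxn2 to -0.0181 and Nrxn3 to -0.0262; the cause was not tested. With an array left out, 20 of the 39 members kept their direction, 12 of them moving by over 1.5 times in at least 1 such fit, among them Rims2 (0.05 to 0.30), Unc13b (-0.46 to -0.075) and Stx1a (-0.33 to -0.035), and 19 turned, with log2 differences of Syn1 -0.21 to 0.12, Syn2 -0.14 to 0.42, Syn3 -0.53 to 0.35, Syp -0.18 to 0.09, Sypl -0.20 to 0.38, Sv2a -0.25 to 0.60, Syt2 -0.19 to 0.54, Syt7 -0.41 to 0.72, Vamp1 -0.055 to 0.53, Vamp2 -0.005 to 0.54, Cplx1 -0.08 to 0.47, Unc13a -0.085 to 0.22, Erc1 -0.43 to 0.37, Slc17a7 -0.25 to 0.59, Dlg4 -0.17 to 0.51, Shank3 -0.41 to 0.74, Nrxn2 -0.44 to 0.55, Nrxn3 -0.065 to 0.26 and Nlgn3 -0.48 to 0.02.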
